A study of Mus musculus with 16 samples.

Results

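Trbv3 is a variable gene of the mouse T cell receptor β chain (TCRβ) locus, named TCRBV03-01 in the deposited values. All rearrangement entries whose V gene was called TCRBV03-01 were taken, which gave 13450 of 198953 entries. Of these, 9489 were productive (in frame with no stop codon, of 126344 productive entries in all), 3864 were out-of-frame and 97 carried a stop codon. Trbv3 was 1 of 33 V genes with a productive template. In the RefSeq table for GRCm38.p6 it lies on chromosome 6 between Trbv2 and Trbv4 and carries the older name Tcrb-V16, while Tcrb-V9 is an older name of Trbv17, so no V-beta number is used for it here. The gene was picked for description with template values of these tumors known, among them those of the CDR3 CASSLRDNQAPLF. Its levels and its recurrent CDR3s are therefore given as descriptions, and p-values printed for its levels between treatments do not have the error rate of a test planned beforehand.

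The samples came from subcutaneous KPC.Luc tumors of female C57BL/6 mice, 8 to 10 weeks old at the time of the experiments. Per the labels they were T cells taken from the tumors with CD90.2 beads, at a purity of 80 to 85%. The same label names a gene expression panel, and the study's methods give the bead isolation under that panel and name only the harvested tumors for receptor sequencing, so whether isolated T cells or whole tumors were the input is unsettled. KPC.Luc is a luciferase-expressing mouse line of pancreatic ductal adenocarcinoma. From 6 to 7 days after implantation, every mouse was given a peptide (10 µg subcutaneously each day) and an antibody (200 µg intraperitoneally every 3 days) for 10 days. The control group received scrambled peptide and isotype IgG, the ANT008 group received the VIP receptor antagonist peptide ANT008 and IgG, the anti-PD-1 group received scrambled peptide and anti-PD-1, and the combination group received ANT008 and anti-PD-1, with 4 mice in each group. Numbers after a group name below identify its tumors. No gene expression was measured in these samples here, so neither the CD4 or CD8 class of the T cells nor the amount of other cells can be read from the data.

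A TCRβ chain is made in the thymus by joining a V, a D and a J gene segment. The join forms the third complementarity-determining region (CDR3), the loop that usually lies over the peptide presented by a major histocompatibility molecule. Bases are trimmed from the gene ends and others are inserted without a template, so that most CDR3s are rare and a few that need little insertion arise again and again in different animals. A failed out-of-frame join can be carried by a T cell whose other allele encodes the receptor, and such joins are used as a record of recombination before selection of the receptor.

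Each entry is 1 unique 87-nucleotide sequence with its number of templates, the service's estimate of starting molecules. Samples held 7180 to 72588 productive templates. If RNA was amplified a template is a transcript and otherwise a gene copy, and the sources name both, so many cells and many transcripts per cell cannot be told apart. Trbv3 had 686 to 7259 productive templates per tumor in 229 to 993 unique rearrangements.

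The CDR3 family that dominated Trbv3 templates had the form CASSxRDNQAPLF, in which x is any residue at position 5, counted from 1 at the first cysteine. All 50 of its Trbv3 entries used TCRBJ01-05. The most abundant entry, with 4262 templates in anti-PD-1 tumor 3, is shown whole to place the CDR3 in the read; capitals mark the bases between the germline V and J parts, and the CDR3 starts at the tgtgcc that encodes its first residues.

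anti-PD-1 3, whole entry: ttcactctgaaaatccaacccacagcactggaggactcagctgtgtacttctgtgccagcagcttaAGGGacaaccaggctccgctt

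The family had 13 different CDR3 nucleotide versions. The 7 with more than 50 templates held 99.9% of its templates and are shown from the first cysteine codon to the end of the read, which stops before the last codon of the CDR3, because they show that the same residues came from different joins. Capitals again mark bases that are neither germline V nor germline J.

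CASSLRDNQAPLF, no inserted base: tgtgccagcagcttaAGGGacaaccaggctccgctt
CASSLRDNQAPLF, 1 inserted base: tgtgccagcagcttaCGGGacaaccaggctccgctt
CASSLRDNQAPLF, 6 inserted bases: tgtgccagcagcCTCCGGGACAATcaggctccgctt
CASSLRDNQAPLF, 5 inserted bases: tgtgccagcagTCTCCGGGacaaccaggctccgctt
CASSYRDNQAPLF, 3 inserted bases: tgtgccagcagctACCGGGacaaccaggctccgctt
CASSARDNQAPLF, 4 inserted bases: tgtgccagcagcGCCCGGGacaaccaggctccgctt
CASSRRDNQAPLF, 4 inserted bases: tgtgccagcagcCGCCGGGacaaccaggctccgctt

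The version with no inserted base had 4267 templates in anti-PD-1 tumor 3 and 1651 in combination tumor 4 and was not seen in the other 14 tumors. The version with 1 inserted base was found in 8 tumors, with 1315 templates in ANT008 tumor 1, 629 in control tumor 2, 348 in control tumor 3, 196 in combination tumor 3 and 85 in control tumor 4. In the 3 other tumors that held it there were 1 to 3 templates. The version with 6 inserted bases had 916 templates in anti-PD-1 tumor 2 and a single template in each of anti-PD-1 tumors 1 and 3. The version with 5 had 117 templates in control tumor 1 and 2 in control tumor 2. The same CDR3 thus reached over 100 templates in 8 tumors through 4 different nucleotide sequences.

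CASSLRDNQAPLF had 9536 templates in 12 of 16 tumors, with 6 nucleotide versions. In ANT008 tumor 2 and anti-PD-1 tumor 1 there was 1 template each, and in combination tumor 1 there were 3. Whether counts this low came from the tumors themselves was not tested. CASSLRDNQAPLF was the whole of the family in 7 of the 12 tumors. Its share of productive templates was 0.45%, 1.54%, 0.913% and 0.231% in control tumors 1 to 4, 5.80% and 0.0030% in ANT008 tumors 1 and 2, and 0.0031%, 2.90% and 5.88% in anti-PD-1 tumors 1 to 3. In combination tumors 1, 3 and 4 it was 0.0090%, 0.334% and 4.56%. It was not detected in ANT008 tumors 3 and 4, anti-PD-1 tumor 4 and combination tumor 2, where 0 templates allow a share of up to 0.026%, 0.014%, 0.042% and 0.012% respectively. The 4 control tumors all held it above 0.2%, while each treated group held at least 1 tumor above 4% and at least 1 in which it was not detected, and the groups overlapped.

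Of the CDR3s of equal length that differ from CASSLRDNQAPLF by 1 residue, 7 occurred with Trbv3, and 6 of these differed at position 5. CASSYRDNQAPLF (L5Y) had 2060 templates, all in control tumor 2, and made up 5.00% of its productive templates. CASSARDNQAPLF (L5A) had 546 templates in anti-PD-1 tumor 4, which was 7.60% of that tumor's productive templates, and 2 templates in anti-PD-1 tumor 3. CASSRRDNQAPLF (L5R) had 276 templates, all in combination tumor 4, beside the 1651 of the leucine form there. The other position 5 neighbors were rare. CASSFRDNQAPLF (L5F) had 9 templates in 2 tumors, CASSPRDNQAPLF (L5P) had 2 and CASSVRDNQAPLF (L5V) had 1. The remaining neighbor, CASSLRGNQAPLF (D7G), had 11 templates in combination tumor 3. All 7 used TCRBJ01-05, whose germline sequence supplies the shared end of the CDR3.

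Summed over its members, the family held 12432 templates, 28.8% of all productive Trbv3 templates. It was found in 15 of 16 tumors, of which ANT008 tumor 2, anti-PD-1 tumor 1 and combination tumors 1 and 2 held only 1 to 3 of its templates. Its share of productive templates was 0.458%, 6.53%, 0.913% and 0.231% in the controls, 5.80%, 0.0091%, 0.061% and 0% in the ANT008 group, 0.0031%, 2.90%, 5.88% and 7.60% in the anti-PD-1 group, and 0.0090%, 0.0041%, 0.334% and 5.33% in the combination group. The 6 tumors above 2% lay in all 4 groups, with 3 of them in the anti-PD-1 group. The other 10 were below 1%, and no tumor lay between. The same amino acid pattern occurred with 14 other V genes in 84 templates over 10 tumors, none in an entry of more than 2 templates, and 77 of these templates were in the 8 tumors where the family had its highest shares of productive templates. Trbv3 therefore carried 99.3% of the templates with this pattern. Whether the entries with other V genes are miscalls of the Trbv3 clones was not tested.

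**Figure D1:**
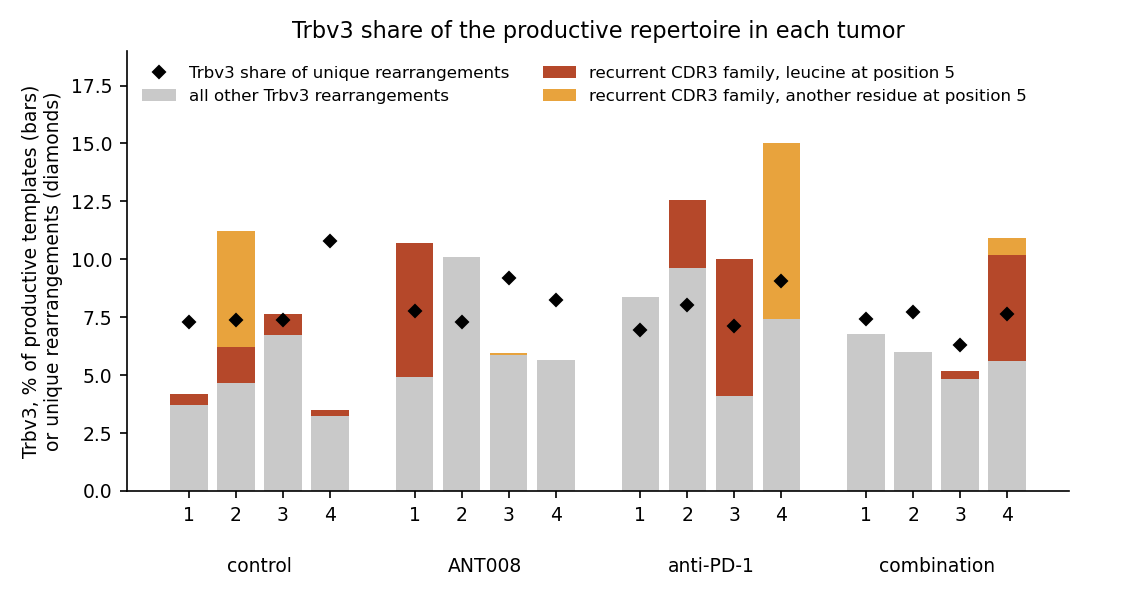
Trbv3 as a percentage of productive templates in each of 16 tumors (stacked bars) and as a percentage of unique productive rearrangements (diamonds), by treatment group and tumor number, with no error bar because each bar is 1 tumor. The colored parts are the CASSxRDNQAPLF family: the diamonds lie between 6.31% and 10.8%, while the bars run from 3.49% to 15.0% and the highest bars carry large family clones or, in ANT008 tumor 2, another clone.

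The question put to the treatments was whether Trbv3 took a different share of the repertoire under ANT008, anti-PD-1 or both. Trbv3 made up 4.18%, 11.2%, 7.62% and 3.49% of productive templates in control tumors 1 to 4, and 10.7%, 10.1%, 5.95% and 5.64% in the ANT008 group. It made up 8.37%, 12.5%, 10.0% and 15.0% in the anti-PD-1 group and 6.79%, 5.99%, 5.16% and 10.9% in the combination group. The order of the means was anti-PD-1 at 11.5% ± 2.92, ANT008 at 8.10% ± 2.67, combination at 7.22% ± 2.57 and control at 6.62% ± 3.55 (SD, n = 4 each), and every pair of neighboring groups in that order overlapped.

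Compared with control, the template share was 4.86 percentage points higher in the anti-PD-1 group (SE 2.09, p = 0.0965, exact permutation form of Dunnett's comparison, two-sided). It was 1.47 points higher in the ANT008 group (p = 0.818) and 0.595 points higher in the combination group (p = 0.983) by the same exact permutation test. None passed 0.05, and the lowest value adjusted over the 9 exact permutation comparisons of this kind was 0.869. Because the gene was picked with template values of these tumors known, the p-values between treatments here and below only describe differences against the spread. The anti-PD-1 value depended on control tumor 2: without it the difference was 6.39 points with p = 0.0243 (exact permutation), before adjustment over the comparisons, and over the 16 tumors left out in turn p ran from 0.0243 to 0.262. Control tumor 2 was the control with the highest family share, given above as 6.53%.

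Fitted with all V genes by the quasi-likelihood method of edgeR, Trbv3 templates were higher than control by 0.79 on the log2 scale in the anti-PD-1 group (SE 0.48, adjusted p = 0.442), by 0.29 in the ANT008 group (SE 0.47, adjusted p = 0.893) and by 0.12 in the combination group (SE 0.47, adjusted p = 1). The difference between the combination and the sum of both single treatments was -0.96 (SE 0.67, adjusted p = 0.600). Of 33 V genes tested, 3.03% were called in the ANT008 contrast, 0% in the anti-PD-1 contrast and 3.03% in the combination contrast at an adjusted p of 0.05, and Trbv3 was in none of them. The genes called, named after their values were seen, were Trbv24 with ANT008 and Trbv14 in the combination group. For anti-PD-1, edgeR put 4 V genes at an unadjusted p under 0.05, and DESeq2 called 0 after adjustment. The 3 contrasts share their control tumors.

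Counted by unique rearrangements, with each join counted once whatever its size, Trbv3 varied less. It made up 7.29%, 7.39%, 7.37% and 10.8% of the productive rearrangements in the controls, 7.78%, 7.29%, 9.18% and 8.26% in the ANT008 group, 6.93%, 8.04%, 7.12% and 9.07% in the anti-PD-1 group, and 7.43%, 7.74%, 6.31% and 7.64% in the combination group. Group means ran from 7.28% ± 0.658 in the combination group to 8.21% ± 1.72 in the controls (SD, n = 4 each). The differences from control were -0.931 points in the combination group, -0.424 in the anti-PD-1 group and -0.086 in the ANT008 group (SE 0.792 each, exact permutation p = 0.546, 0.935 and 0.999).

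Over all 16 tumors, unique Trbv3 rearrangements held 2.31 to 8.36 templates each on average. The log2 ratio of the gene's template share to its rearrangement share was -0.01 (SE 0.17, n = 16, adjusted p = 0.95, exact sign-flip permutation test) and was positive in 9 of 16 tumors. By this measure 58.3% of the 24 V genes with enough rearrangements were called in either direction, and Trbv3 was not.

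The largest Trbv3 clone, meaning the most abundant nucleotide rearrangement, held 13.5%, 44.5%, 11.9% and 6.92% of Trbv3 templates in control tumors 1 to 4, 54.0%, 35.0%, 10.1% and 15.0% in the ANT008 group, 12.1%, 23.1%, 58.7% and 50.4% in the anti-PD-1 group, and 5.42%, 9.67%, 12.8% and 41.6% in the combination group. In 5 of 16 tumors a single clone held over 40% of Trbv3 templates, and all 4 groups had such a tumor. Group means were 36.1% ± 22.1 in the anti-PD-1 group, 28.5% ± 20.1 in the ANT008 group, 19.2% ± 17.1 in the controls and 17.4% ± 16.4 in the combination group (SD, n = 4 each). The differences from control of 9.32, 16.9 and -1.83 points (SE 13.5) had exact permutation p-values of 0.820, 0.470 and 1.00 and were smaller than or close to the spread within groups.

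**Figure D2:**
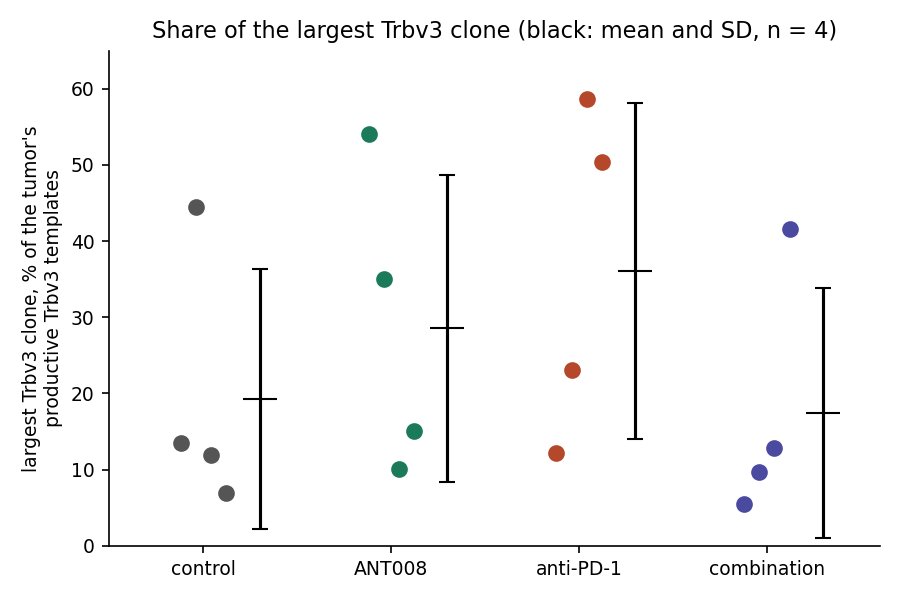
Share of productive Trbv3 templates held by the largest Trbv3 clone of each tumor (points, linear axis from 0), by group, with the group mean and SD (n = 4) in black. Points run from 5.42% to 58.7%, and in every group at least 1 tumor lies above 40% and at least 1 below 15%.

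The family supplied the leading Trbv3 clone in 7 of 16 tumors. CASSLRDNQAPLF led in control tumor 3, ANT008 tumor 1, anti-PD-1 tumors 2 and 3 and combination tumor 4, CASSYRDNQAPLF led in control tumor 2, and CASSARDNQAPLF led in anti-PD-1 tumor 4. The leading Trbv3 clone was the most abundant productive clone of any V gene in ANT008 tumor 1, at 5.78% of productive templates (95% Wilson interval 5.48 to 6.09%), and in anti-PD-1 tumor 4, at 7.58% (6.99 to 8.21%). In control tumor 2 it ranked 2nd at 4.98% (4.78 to 5.20%), and in anti-PD-1 tumor 3 it ranked 2nd at 5.87% (5.70 to 6.04%). These intervals cover counting error only.

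The leading clones of the other 9 tumors had other CDR3s, and most were smaller. The largest, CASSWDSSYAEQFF with TCRBJ02-01 in ANT008 tumor 2, held 3.53% of productive templates and was found in no other tumor. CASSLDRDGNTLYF with TCRBJ01-03 led in anti-PD-1 tumor 1 at 1.02%. The other 7 led at 0.241 to 0.847% of productive templates: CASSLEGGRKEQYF in control tumor 1, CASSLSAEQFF in control tumor 4, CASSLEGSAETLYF in ANT008 tumor 3, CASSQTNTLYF in ANT008 tumor 4, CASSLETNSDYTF in combination tumor 1, a 16-residue CDR3 with TCRBJ02-03 in combination tumor 2, and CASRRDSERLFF in combination tumor 3. The nucleotide sequence of the leading clone was found in no other tumor in 7 of the 16 cases.

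With the family left out of both the Trbv3 templates and the total, the Trbv3 share ran from 3.26 to 6.77% in the controls, 5.20 to 10.1% in the ANT008 group, 4.38 to 9.93% in the anti-PD-1 group and 4.84 to 6.78% in the combination group. The differences from control were then 2.01, 2.98 and 1.19 points (SE 1.31) for the ANT008, anti-PD-1 and combination groups, a setting chosen after the values were seen. Leaving out a family chosen by its values lowers the Trbv3 share of the tumors that hold it by construction, so no p is given. The same setting brought the anti-PD-1 difference in the largest clone from 16.9 to -0.562 points. The family, chosen by its values, was not tested between groups.

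Most Trbv3 CDR3s were private. Of 7897 different productive CDR3s, 7166 (90.7%) occurred in 1 tumor, 731 (9.26%) in at least 2, 111 (1.41%) in at least 4 and 12 (0.152%) in at least 8. The same counts over all other V genes were 93.1%, 6.93%, 0.797% and 0.101% of 100115 pairs of V gene and CDR3. These shares depend on depth and on how many rearrangements a V gene has, and they are given as a description.

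The most widespread Trbv3 CDR3 was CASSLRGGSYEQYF with TCRBJ02-07, found in 15 of 16 tumors through 13 nucleotide versions. Its share of productive templates had a median of 0.032% and a highest value of 0.590% in anti-PD-1 tumor 1, and it was absent in anti-PD-1 tumor 4, the sample with the fewest templates. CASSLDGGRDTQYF with TCRBJ02-05 was found in 12 tumors, also through 13 versions, at no more than 0.088%. Both were seen in all 4 groups, and their highest shares lay far below the highest share of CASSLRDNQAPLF, 5.88% in anti-PD-1 tumor 3. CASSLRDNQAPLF was found in as many tumors as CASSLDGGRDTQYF, with 9536 against 141 templates. That total was set by a few tumors. In others, such as ANT008 tumor 4 and combination tumor 1, both CDR3s stood above it.

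The next CDR3s by number of tumors were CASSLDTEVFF with TCRBJ01-01 and a pair of 15-residue CDR3s with TCRBJ02-01 and TCRBJ01-03, each in 10 tumors. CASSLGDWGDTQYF, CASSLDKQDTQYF and a pair of 15-residue CDR3s with TCRBJ02-01 were each in 8. Their highest share in any tumor lay between 0.028 and 0.377%. The nucleotide versions of the most widespread forms are shown because they differ in how much of the join lies outside the germline V and J genes, marked in capitals.

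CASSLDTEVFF, in 9 tumors: tgtgccagcagcttagacacagaagtcttc
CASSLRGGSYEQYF, in 6 tumors: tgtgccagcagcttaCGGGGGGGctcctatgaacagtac
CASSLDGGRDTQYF, in 5 tumors: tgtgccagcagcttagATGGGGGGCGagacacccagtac
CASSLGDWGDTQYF, in 6 tumors: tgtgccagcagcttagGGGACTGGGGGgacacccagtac

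The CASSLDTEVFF version has no capital at all: the germline V and J parts meet directly, and this single sequence accounted for 81 of its 91 templates. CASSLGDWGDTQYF was found in 4 of 4 tumors of the combination group, at 0.149% ± 0.108, against 0.0188% ± 0.0376, 0.0067% ± 0.0087 and 0.0034% ± 0.0069 in the control, ANT008 and anti-PD-1 groups (SD, n = 4 each). It was singled out after its values were seen and was not tested.

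Trbv3 was more frequent among productive than among out-of-frame rearrangements in every tumor. Its share of unique out-of-frame rearrangements was 4.58 to 6.90% (median 5.52%), against 6.31 to 10.8% (median 7.54%) of productive ones. The log2 ratio of these shares averaged 0.50 (SE 0.053, n = 16) and was positive in 16 of 16 tumors (adjusted p = 6.1e-05, exact sign-flip permutation test, two-sided, where the smallest unadjusted p possible is 3.05e-05). Of the productive and out-of-frame Trbv3 rearrangements of a tumor, 71.1% ± 2.68 were productive, against 62.9% ± 2.16 for all other V genes (SD, n = 16).

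This ratio was positive for many V genes. At an adjusted p of 0.05, 62.5% of the 24 V genes tested were called in either direction and 37.5% were called higher among productive rearrangements. Trbv3 had the 3rd highest ratio, behind Trbv12-2 at 0.78 and Trbv29 at 0.55. Because shares sum to a whole, genes with a low ratio, such as Trbv21, Trbv22 and Trbv24 at -2.01, -1.94 and -1.92, raise the ratio of all others. By how much they raise that of Trbv3 was not estimated. Weighted by templates the Trbv3 ratio was 0.38 (SE 0.22, positive in 12 of 16 tumors, adjusted p = 0.164 by the exact sign-flip permutation test) and no longer passed.

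**Figure D3:**
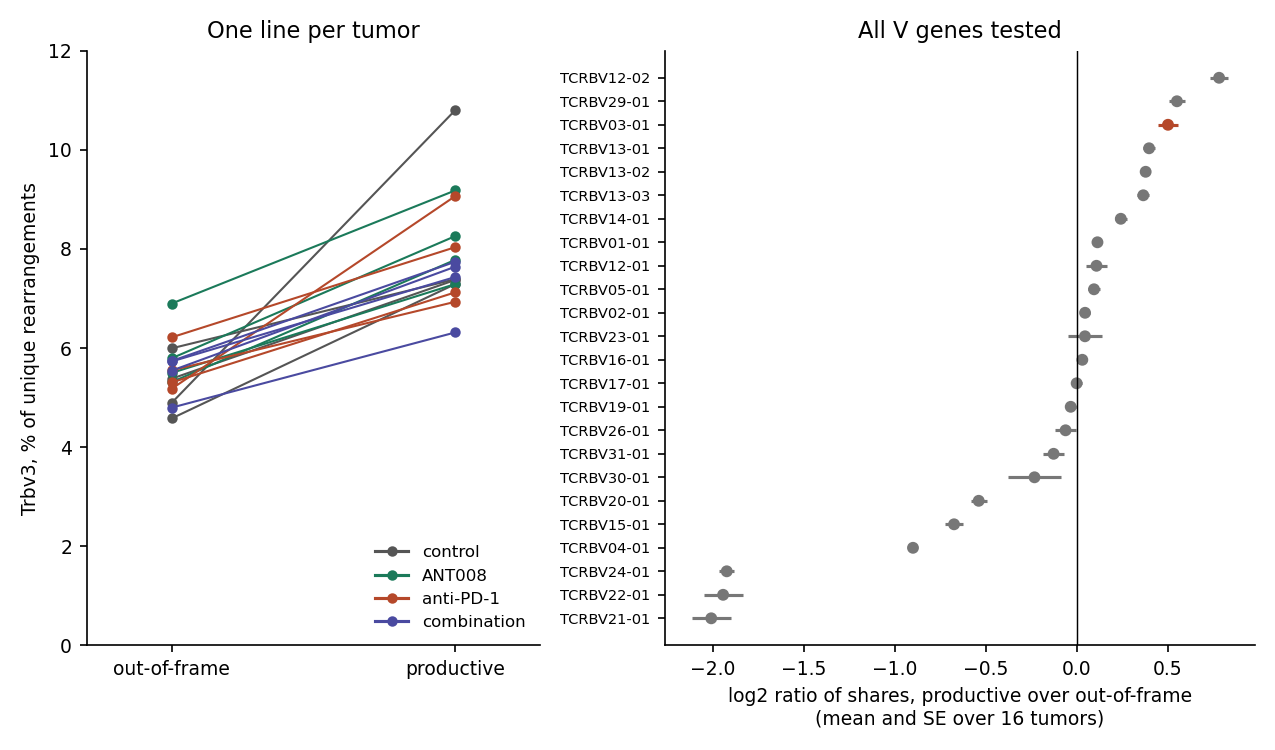
Left, Trbv3 as a percentage of unique out-of-frame and unique productive rearrangements, with 1 line per tumor colored by group. Right, mean log2 ratio of the productive to the out-of-frame share for each of 24 V genes (SE over 16 tumors), where Trbv3 (TCRBV03-01, red) is 3rd from the top at 0.50 and all 16 lines on the left rise.

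By templates, the out-of-frame share of Trbv3 was set by a few clones. It was 37.0% in control tumor 2 and 15.6% in control tumor 3, against 2.84 to 6.73% in the other 14 tumors. A single out-of-frame Trbv3 entry with TCRBJ02-03 held 7776 templates in control tumor 2, 33.4% of that tumor's out-of-frame templates, and 1 template in 1 other tumor. The largest productive clone of the same tumor, a Trbv1 rearrangement, held 7510 templates. An entry with TCRBJ02-01 held 1664 templates in control tumor 3 (9.38% of out-of-frame templates). The largest productive clone of that tumor, a Trbv5 rearrangement, held 2193 templates, and the productive clone nearest to the entry in size, a Trbv2 rearrangement, held 1635. Without the largest entry of each tumor the control values were 2.32 to 6.87%, and those of the treated tumors were 3.16 to 5.38%. Both sequences are shown because they carry this difference, with capitals as before.

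control 2, out-of-frame: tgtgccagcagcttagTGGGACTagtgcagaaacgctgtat
control 3, out-of-frame: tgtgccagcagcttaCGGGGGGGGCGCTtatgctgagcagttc

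Of the 12 J genes with enough rearrangements, 1 was paired with Trbv3 at a different rate than with other V genes among unique productive rearrangements. TCRBJ01-06 made up 1.27% ± 0.634 of Trbv3 rearrangements and 3.22% ± 0.261 of those of other V genes (SD, n = 16). The difference was -1.96 points (SE 0.170), it was negative in 16 of 16 tumors, where it ranged from -3.02 to -0.345 points, and its adjusted p over all 288 pairs of V and J gene was 0.000488 (exact sign-flip permutation test). Over all pairs, 19.4% were called lower and 9.72% higher. The low rate was not particular to Trbv3: this J gene was also called lower with Trbv15, Trbv16 and Trbv30. It was called higher with Trbv1, Trbv2, Trbv19 and Trbv26. Among out-of-frame rearrangements the same J gene was at 4.01% with Trbv3 and 3.47% with other V genes (difference 0.54 points, SE 0.364, adjusted p = 0.343, exact sign-flip permutation test). The difference between the productive and the out-of-frame result was itself not tested.

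TCRBJ01-05, the J gene of the family, made up 3.64% ± 1.11 of productive Trbv3 rearrangements and 3.09% ± 0.251 of those of other V genes (difference 0.55 points, SE 0.247, adjusted p = 0.112, exact sign-flip permutation test). Among out-of-frame rearrangements, which cannot encode the family, it was at 5.00% against 3.89%, a difference of 1.11 points (SE 0.327, higher in 13 of 16 tumors, adjusted p = 0.0229 by the same exact permutation test). By templates the productive difference was 20.1 points (SE 5.81, higher in 14 of 16 tumors), given as a description because these templates include those of the family. The 50 family entries are also among the unique productive rearrangements compared above. The family held 94.1 to 98.9% of Trbv3 templates with TCRBJ01-05 in the 6 tumors where it exceeded 2% of productive templates.

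The other 10 J genes did not pass the test with productive rearrangements. TCRBJ02-07, at 20.9% ± 1.82, and TCRBJ02-01, at 13.9% ± 2.02, were the most used with Trbv3, and they were at 21.2% and 13.0% with other V genes. The remaining differences lay between -0.459 points for TCRBJ01-01 and 0.689 points for TCRBJ01-02, and the adjusted p of these 10 ranged from 0.103 to 0.781 (exact sign-flip permutation test).

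**Figure D4:**
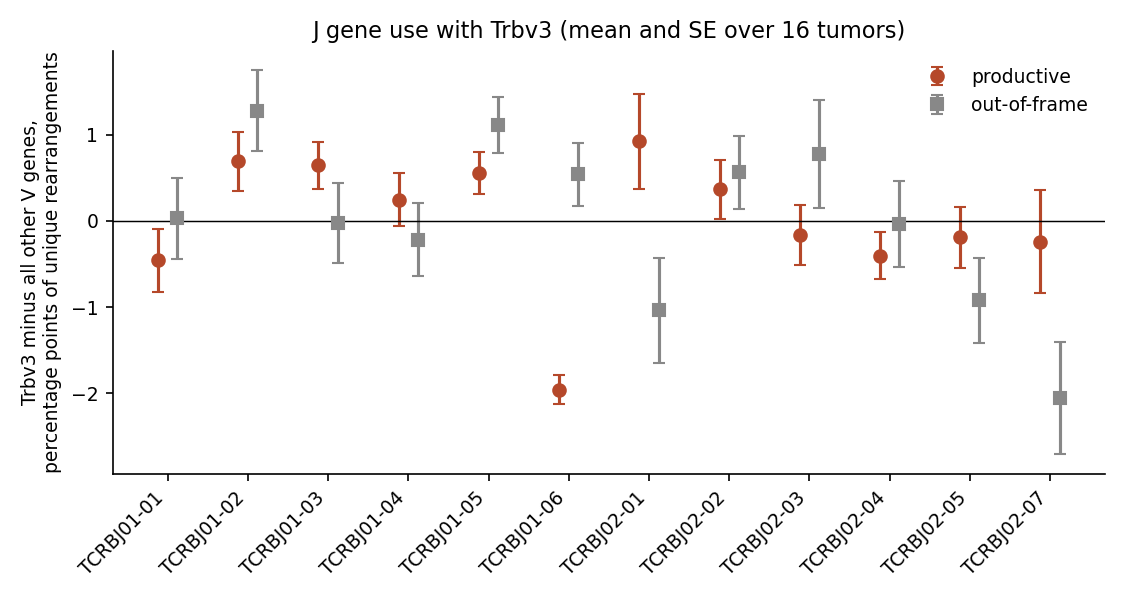
Difference between Trbv3 and all other V genes in the percentage of unique rearrangements that use each J gene, in percentage points, among productive (red circles) and out-of-frame (grey squares) rearrangements (mean and SE over 16 tumors). Productive TCRBJ01-06 stands at -1.96 points while its out-of-frame value is 0.54, and TCRBJ01-05 is above 0 in both.

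The CDR3s of Trbv3 had an average length. Unique productive rearrangements encoded 14.02 ± 0.111 residues with Trbv3 and 14.0 ± 0.061 with other V genes (SD, n = 16), a difference of 0.011 residues (SE 0.024, adjusted p = 0.687, exact sign-flip permutation test), in a test that called 87.5% of 24 V genes. Lengths of 14 residues (33.4%), 15 residues (24.2%) and 13 residues (17.1%) were the most frequent among Trbv3 entries. The 2 junctions together held 3.48 ± 0.170 inserted nucleotides with Trbv3 and 3.57 ± 0.073 with other V genes (difference -0.086, SE 0.041, adjusted p = 0.0667, exact sign-flip permutation test), in a test that called 66.7% of V genes. This value crossed the threshold without control tumor 2 (adjusted p = 0.0394) or without anti-PD-1 tumor 4 (adjusted p = 0.0139, both by exact sign-flip permutation). In out-of-frame rearrangements Trbv3 joins held 3.93 ± 0.147 inserted nucleotides against 4.16 ± 0.161, a difference of -0.230 (SE 0.061, lower in 13 of 16 tumors, adjusted p = 0.00795, exact sign-flip permutation test). TCRBD01-01 was called in 41.4% ± 2.57 of Trbv3 rearrangements and 42.2% ± 0.762 of all others, and TCRBD02-01 in 38.9% ± 3.35 and 39.2% ± 1.35 (SD, n = 16). The D gene was unresolved in 19.7% ± 1.98 and 18.6% ± 0.959, and D use was not tested.

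The V genes whose template share was most like that of Trbv3 over the 16 tumors were Trbv23, Trbv20 and Trbv17, with Spearman correlations of 0.53, 0.50 and 0.50 and mean shares of 0.446%, 2.10% and 1.41%, against 8.36% for Trbv3. The values come from the same samples and shares of 1 sample sum to a whole, and the ranks are given as a description.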

How the data were processed

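Samples from 16 tumors, labelled as T cells, were profiled with the immunoSEQ mouse TCRβ survey assay, in which V and J primers amplify the CDR3 and a synthetic repertoire corrects for primer bias. The authors deposited template counts made by the service, which are whole numbers estimated per unique rearrangement and not normalized between samples, with its V, D and J call, reading frame, CDR3 length and numbers of deleted and inserted bases. The molecule amplified is unsettled: the labels name RNA, the study's text also names DNA. The aligner and the genome build are not given in the sources used here, and no coordinates are printed. Sequencing reads were not used here.

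Samples were grouped by their titles. V gene templates were tested with the edgeR 4.0.16 quasi-likelihood test (R 4.3.3; all 16 samples in 1 fit, library size the productive templates, unresolved V genes at most 0.0433% left out, Benjamini-Hochberg adjustment over V genes), with DESeq2 1.42.0 as an alternative. The study's comparison with control by Dunnett's method was made in an exact permutation form over 10510500 assignments. Measures within samples were tested with exact sign-flip permutation over 16 samples, for every V gene or V and J pair with a mean of at least 10 rearrangements per sample, with 0.5 added to counts in log2 ratios. Methods were tested on simulated data. Python 3.11.15, numpy 2.4.6, pandas 2.3.3 and numba 0.67.0 were used. Nothing in the labels says more of the 4 samples of a group than their number, so p-values measure the spread between these samples. V names were matched to RefSeq symbols for 33 of 33 genes, and J and D names are the service's.

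The gene, its CDR3 lists and the tests were chosen with earlier results of these data known. Named were all J genes; the first 10 Trbv3 CDR3s by number of samples, ties broken by mean share; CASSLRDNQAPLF and its neighbors by 1 residue; the leading clone of each sample; and the 3 V genes most alike in template share. CDR3s of 15 or more residues are given by length and J gene. Sample numbers inside the deposited entries differ from those in the titles, which are used here.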

Additional observations from a re-analysis of the deposited data

Results flagged for a closer look

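A sample far from the other 3 of its group was found in 7 of 36 sets of 4 tumors examined. The sets were 9 measures in 4 groups, overlapping in what they measure. Chance gives about 1 in 20 under the rule used only for normally distributed values. Apart from that of control tumor 4, every set found was measured on the CASSxRDNQAPLF family, on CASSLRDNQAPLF or without the family. Shares of these clones were skewed, and the clones were chosen with their values known. The number of sets found therefore cannot be read against 1 in 20, and the sets are listed as a description. Control tumor 4 had 10.8% of unique productive rearrangements with Trbv3, against 7.29 to 7.39% in the other controls. The CASSxRDNQAPLF family stood apart in control tumor 2 at 6.53%, in ANT008 tumor 1 at 5.80% and in combination tumor 4 at 5.33% of productive templates, and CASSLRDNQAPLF alone in ANT008 tumor 1 at 5.80% and in combination tumor 4 at 4.56%. In the anti-PD-1 group no tumor stood apart, and 3 of its 4 tumors were above 2%. Without the family, ANT008 tumor 2 had a Trbv3 share of 10.1%, against 5.20 to 5.89% in the other 3 tumors of its group.

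Trbv3 entries with a stop codon, which no main comparison used, held more templates than in any control tumor (5 to 19) in 3 treated tumors. There were 631 templates in 27 entries in anti-PD-1 tumor 3, 598 of them in 1 entry with TCRBJ01-01, 101 in combination tumor 1, 95 of them in 1 entry, and 32 in ANT008 tumor 1.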

How the results depend on the processing

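No difference in Trbv3 between a treatment and control was called in the main analysis, and 2 were called in an alternative: the anti-PD-1 template share without control tumor 2 and the combination log2 change out-of-frame. Over all alternatives that leave out no tumor, 84 of 129 values kept their direction and side of the threshold or, where the value was a count of genes called, stayed equal or similar. Merging entries with the same CDR3 nucleotides and leaving out the CASSxRDNQAPLF family were chosen after seeing the data. No V call was a tie that named Trbv3, so counting ties was not run.

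With out-of-frame rearrangements in place of productive ones, the Trbv3 template share differed from control by -8.95, -10.4 and -10.3 points for the ANT008, anti-PD-1 and combination groups, its share of unique rearrangements by 0.663, 0.350 and 0.240 points, and its edgeR log2 change was -1.30, -1.69 and -1.65 (adjusted p = 0.195, 0.0569 and 0.0459); the entry of 7776 templates in control tumor 2 lies in these counts. With unique rearrangements in place of templates the edgeR changes were -0.017, -0.086 and -0.16. Without the largest clone of each V gene they were -0.0099 for ANT008 and -0.057 for the combination, and for the combination also -0.057 with TMM normalization and -0.055 with DESeq2. The cause of these changes of sign was not tested. Without single-template rearrangements the unique share differed by 0.866 points for ANT008. Without the family the largest clone share differed by -0.562 points for anti-PD-1. EdgeR called 0 V genes for the combination without low V genes, 0 for ANT008 and 0 for the combination with unique rearrangements, and 0 for ANT008 and 3 for the combination with out-of-frame templates. With the replicate block, the differences in template share had p = 0.85, 0.117 and 0.988 (exact permutation within numbers), the edgeR log2 changes were 0.32, 0.82 and 0.17, and no call changed. Of 24 pairs of samples with the same number in different groups, 10 correlated above 0.1 in their deviations from the group means (-0.303 to 0.74), so the numbers were not taken to pair the samples.

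The productive to out-of-frame log2 ratio was 0.38 by templates. The template to rearrangement ratio was 0.11 without the largest clones. By templates the CDR3 length difference was -0.186 residues. The difference in inserted nucleotides was -0.230 out-of-frame. Out-of-frame, 1 J gene was higher and 0 lower with Trbv3, and the differences turned to 0.030 points for TCRBJ01-01, -0.025 for TCRBJ01-03, -0.219 for TCRBJ01-04, 0.538 for TCRBJ01-06, -1.04 for TCRBJ02-01 and 0.775 for TCRBJ02-03. By templates, 1 was higher (TCRBJ01-05, whose templates include the family) and 2 lower (TCRBJ01-06 and TCRBJ02-07), and those of TCRBJ01-02, TCRBJ01-04, TCRBJ02-01, TCRBJ02-02 and TCRBJ02-05 turned to -0.962, -1.34, -0.589, -2.40 and 0.914. The shares of all V and J pairs called out-of-frame and by templates are not given here, so these counts have no background to be read against.

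Leaving out 1 tumor at a time, the template share difference lay between 3.68 and 6.39 points for anti-PD-1 and between -0.644 and 2.12 for the combination, the unique share difference between -0.437 and 0.776 for ANT008 and between -0.849 and 0.438 for anti-PD-1, and the largest clone difference between -9.90 and 6.60 for the combination, whose edgeR log2 change lay between -0.15 and 0.50. EdgeR called 0 to 2 V genes for ANT008, 0 to 2 for anti-PD-1 and 0 to 3 for the combination. The template to rearrangement ratio lay between -0.062 and 0.095, the CDR3 length difference between -0.00014 and 0.023 residues, and that in inserted nucleotides between -0.111 and -0.069. The TCRBJ02-07 difference lay between -0.472 and 0.163 points. J genes called higher numbered 0 to 1: TCRBJ01-02 without anti-PD-1 tumor 2 and TCRBJ01-03 without anti-PD-1 tumor 4. The shares of all pairs called without those tumors are not given here either.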
